A study of Mus musculus with 16 samples.

Results

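The 10 genes described here are Nr4a1, Nr4a2, Nr4a3, Fos, Fosb, Egr1, Junb, Ier2, Dusp1 and Nab2, which are immediate early transcription factors and their feedback genes. They were taken by name from the 41740 genes listed for each of 16 libraries of mouse ileum, and all 10 were among the 15267 genes with enough reads to be tested. They were chosen by name, without a threshold, but with their read counts and fold changes in all 3 comparisons of these libraries known. Their differences between groups are therefore given as a description. Where the number of them called in the fit over all genes is printed, it is no test of them and nothing is read from it.

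RNA was taken from the whole wall of the ileum of male C57BL/6J mice aged 20 weeks. All mice carried floxed insulin receptor alleles and were STAM mice, a model of diabetes with fatty liver disease and liver cancer made by injecting streptozotocin on day 2 after birth with high-fat feeding that began at 4 weeks. Control-STAM-nonINS mice (4 libraries; genotype Vilin-Cre(-); InsR-flox) received saline, and Control-STAM-INS mice (6 libraries) had the same genotype and received insulin degludec, a long-acting insulin, from 6 weeks of age in 2 injections per day of up to 12 U/kg. ieIRKO-STAM-INS mice (6 libraries; Vilin-Cre(+); InsR-flox) received the same insulin and carry Cre under the villin promoter, which is active in the intestinal epithelium, whereas the sequenced wall also holds muscle, nerves, vessels, stroma and immune cells. The labels call the libraries of a group biological replicates, and the time between the last injection and tissue collection is not given in the sources used here.

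The libraries held 13288018 to 22215382 counted reads. Levels are CPM, the read count of a gene scaled to a common library size by the TMM method, and fold changes are on the log2 scale with their standard error (SE) from a model of all 3 groups. Insr, the insulin receptor gene that the knockout targets, was at 62.7 ± 10.1 CPM (SD, n = 6) in Control-STAM-INS and 67.2 ± 13.4 CPM (SD, n = 6) in ieIRKO-STAM-INS, a log2 difference of 0.10 (SE 0.13), so these bulk counts do not show the deletion. They cover the whole gene in the whole wall, where a loss of some exons in the epithelium may not be seen, and are no test of the labels. Insr was at 105 ± 12.3 CPM (SD, n = 4) in Control-STAM-nonINS, and was lower by a log2 change of -0.75 (SE 0.14) in Control-STAM-INS (adjusted p = 0.00275, edgeR; no overlap) and of -0.65 (SE 0.14) in ieIRKO-STAM-INS (adjusted p = 0.00582, edgeR). The third group is called here the libraries labelled ieIRKO-STAM-INS. Epithelial and smooth muscle markers were abundant in every library, with summed levels of 9017 to 26644 CPM over 7 enterocyte markers and 2642 to 4171 CPM over 8 smooth muscle markers. The libraries labelled ieIRKO-STAM-INS replicate 2 and replicate 3 stood apart with 446 and 262 CPM summed over 6 B cell markers, against 19.1 to 55.3 CPM in the other libraries.

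Immediate early genes are transcribed quickly when a growth factor, hormone, nutrient, second messenger or stress signal reaches a cell, without the need for new protein, and their transcripts are usually short-lived. Several encode transcription factors that switch on a later set of genes, and others encode proteins that end the signal or restrain the factors. The NR4A receptors are nuclear receptors whose activity is set mainly by how much of them is made, since no regular hormone ligand is known for them. Their genes, like Fos and Dusp1, are classical targets of CREB, the factor that binds the cyclic AMP response element TGACGTCA or its shorter core TGACG.

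Promoter sequences from RefSeq (assembly GRCm38.p6) were found for 8 of the 10 genes, Egr1 and Ier2 being the ones without an entry, and their 250 bases before the start were searched on both strands. The search was made after the values were seen. The core TGACG was present in 7 of these 8 promoters, in Nr4a1, Nr4a2, Nr4a3, Fos, Fosb, Junb and Dusp1, whereas 17.8% of all 32851 promoters and 24.7% of the 14908 promoters of tested genes contained it. Nab2 had no match. The full element TGACGTCA, which contains the core on each strand, was found in Dusp1, in 1.55% of all promoters and in 2.35% of those of tested genes. The EGR-binding letters GCGGGGGCG occurred in Nr4a1 and Fosb, in 2.57% of all promoters and in 4.57% of those of tested genes. The NR4A letters AAAGGTCA, the AP-1 letters TGACTCA, the other EGR form GCGTGGGCG and the CArG box of serum response factor had 0 matches in the 8 promoters, against 1.34%, 4.46%, 0.536% and 1.47% of all promoters and 0.999%, 3.53%, 0.959% and 1.21% of those of tested genes. A match of letters is a description and not a bound site.

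Stretches without annotated exon sequence are printed for 2 receptors, an AP-1 subunit and the phosphatase, because Nr4a1, Fos and Nr4a3 had the largest fold changes with insulin among the genes with a sequence and Dusp1 held the full element. They run 5′ to 3′ in the direction of the gene, and capitals mark TGACG, its reverse complement CGTCA or the full element. They lie at chr15:101266596-101266845 (Nr4a1, plus strand, within an intron of a longer transcript of the gene), chr4:48045055-48045152 (Nr4a3, plus strand, before the gene), chr12:85473640-85473889 (Fos, plus strand, before the gene) and chr17:26508520-26508722 (Dusp1, minus strand, within an intron of a longer transcript).
Nr4a1: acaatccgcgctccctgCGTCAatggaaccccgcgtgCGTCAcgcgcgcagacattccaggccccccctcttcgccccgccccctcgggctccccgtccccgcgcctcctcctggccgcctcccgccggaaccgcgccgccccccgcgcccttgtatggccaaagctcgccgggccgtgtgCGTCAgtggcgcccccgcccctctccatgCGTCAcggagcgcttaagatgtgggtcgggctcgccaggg
Nr4a3: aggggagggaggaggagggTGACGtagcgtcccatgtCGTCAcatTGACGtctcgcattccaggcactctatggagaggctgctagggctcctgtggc
Fos: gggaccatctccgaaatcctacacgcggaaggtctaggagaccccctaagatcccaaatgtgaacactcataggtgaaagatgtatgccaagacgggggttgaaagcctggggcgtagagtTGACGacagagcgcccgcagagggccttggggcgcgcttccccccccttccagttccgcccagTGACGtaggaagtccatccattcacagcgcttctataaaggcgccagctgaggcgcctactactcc
Dusp1: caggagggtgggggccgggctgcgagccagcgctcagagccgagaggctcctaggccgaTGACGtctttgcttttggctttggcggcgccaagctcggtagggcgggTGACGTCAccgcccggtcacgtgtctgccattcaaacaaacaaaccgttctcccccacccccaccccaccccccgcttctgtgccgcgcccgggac

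**Figure D1:**
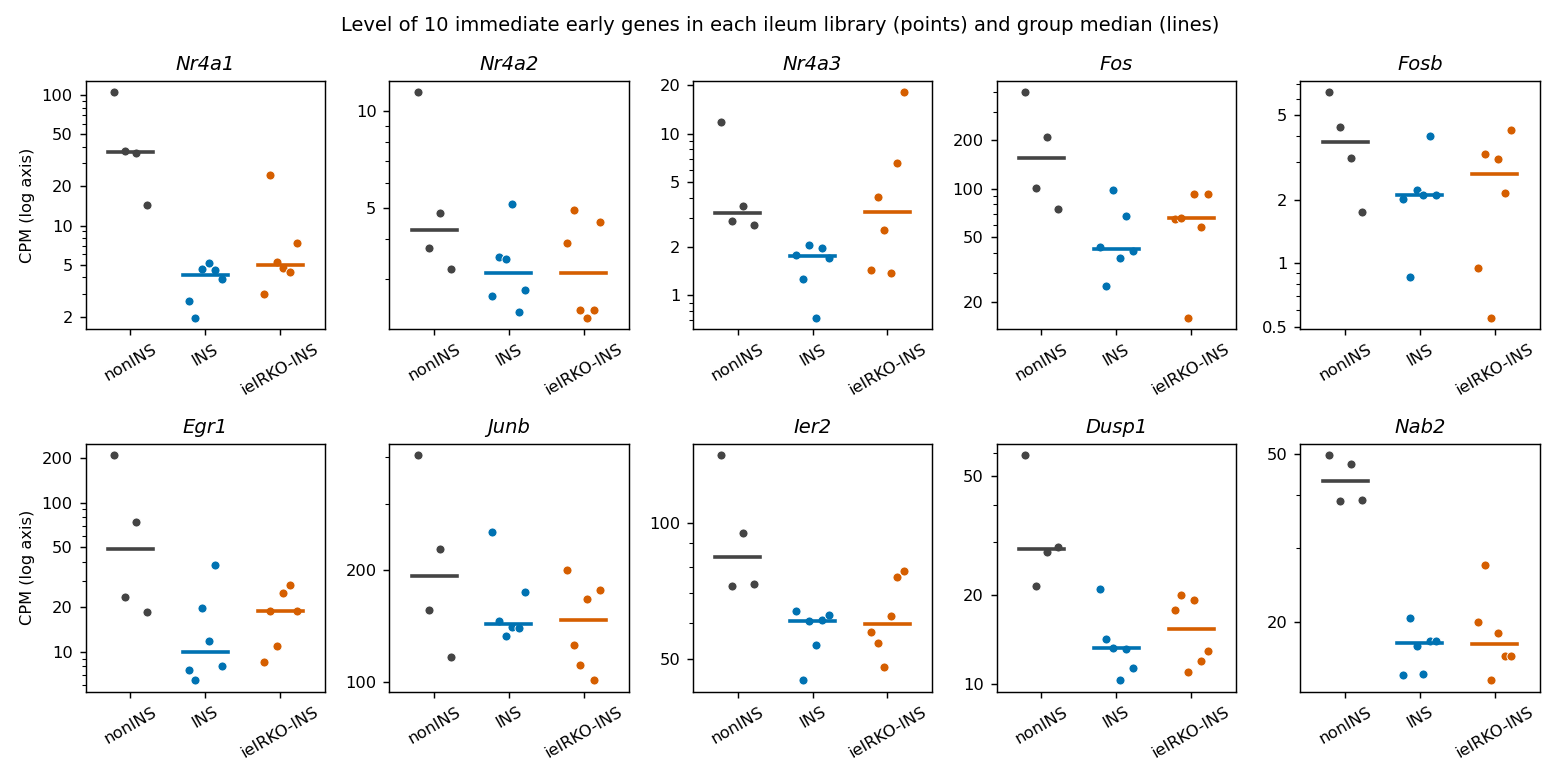
Level of each of the 10 genes in CPM (log axis, a separate scale for each panel) in each library (points), with the group median as a line. The libraries are Control-STAM-nonINS (nonINS, n = 4), Control-STAM-INS (INS, n = 6) and those labelled ieIRKO-STAM-INS (ieIRKO-INS, n = 6), and the leftmost nonINS point, replicate 1, is the highest of its group in every panel.

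The effect of insulin treatment was examined first, by setting Control-STAM-INS against Control-STAM-nonINS. All 10 genes had a lower fitted level with insulin, from a log2 change of -3.65 for Nr4a1 to -0.46 for Junb, with a median of -1.32, while the median over all tested genes was -0.0043. Between all libraries of these 2 groups, 5 genes did not overlap (Nr4a1, Nr4a3, Ier2, Dusp1 and Nab2), where 6.23% of all tested genes were lower without overlap. In the fit over all genes with edgeR, 6 of the 10 were called lower, where 6.76% of all tested genes were. Since the genes were chosen with these values known, nothing is read from those counts.

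Among the receptors, Nr4a1 (Nur77; ENSMUSG00000023034.7, chr15:101254269-101274795, GRCm38 in the GENCODE M21 annotation, as for the positions that follow) differed most. Its levels were 105.2, 37.3, 36.0 and 14.3 CPM in Control-STAM-nonINS replicates 1 to 4. In Control-STAM-INS the lowest was 1.96, the median 4.20 and the highest 5.20 CPM. The lowest untreated library thus lay well above the highest treated one. The log2 fold change was -3.65 (SE 0.62, 95% confidence interval -4.86 to -2.45), which is 12.6-fold lower. Without replicate 1 of the untreated group it was -2.93.

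Nr4a3 (Nor1; ENSMUSG00000028341.9, chr4:48045153-48086447) was at 11.9, 2.90, 3.58 and 2.71 CPM in the untreated mice. With insulin its lowest, median and highest levels were 0.724, 1.75 and 2.04 CPM. These groups did not overlap either, but the untreated group was drawn up by replicate 1, and the log2 fold change of -1.72 (SE 0.68) was -0.94 without it. Nr4a2 (Nurr1; ENSMUSG00000026826.13, chr2:57106830-57124003) was at 11.5, 3.76, 4.81 and 3.24 CPM untreated and at 2.38, 3.13 and 5.14 CPM (lowest, median, highest) with insulin. Its groups overlapped, with a log2 fold change of -0.80 (SE 0.33), or -0.25 without replicate 1. Retinoid X receptors, which pair with NR4A1 and NR4A2 on DNA, were measured by Rxra and Rxrb, and neither was called in any of the 3 comparisons.

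Fos, Fosb and Junb encode subunits of the AP-1 factor. Fos (ENSMUSG00000021250.13, chr12:85473890-85477273) was at 395.7, 101.6, 209.1 and 75.1 CPM in the untreated libraries. With insulin it was at 25.0, 42.3 and 98.3 CPM (lowest, median, highest). Of the 6 treated libraries 5 were below every untreated one, and the log2 fold change of -1.91 (SE 0.52) was -1.30 without untreated replicate 1. Fosb (ENSMUSG00000003545.3, chr7:19302696-19310051) was low throughout, at 6.43, 4.39, 3.13 and 1.75 CPM untreated and 0.863, 2.10 and 4.00 CPM with insulin. The ranges overlapped, with a log2 fold change of -0.81 (SE 0.47), or -0.46 without replicate 1. Junb (ENSMUSG00000052837.6, chr8:84974484-84978718) was at 404.6, 156.2, 227.1 and 116.5 CPM untreated and 133, 143 and 252 CPM with insulin. It had the smallest difference of the 10 genes, at -0.46 (SE 0.30), an interval of -1.05 to 0.13, and no treated library lay below all untreated ones. Without untreated replicate 1 almost nothing of it was left, at -0.02.

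Egr1 (ENSMUSG00000038418.7, chr18:34859823-34864984) encodes a zinc finger factor, and Nab2 encodes a protein that binds EGR factors and represses them. Egr1 varied most among the untreated mice, at 208.2, 23.1, 74.0 and 18.4 CPM, an 11.3-fold range. With insulin it was at 6.43, 9.93 and 38.3 CPM (lowest, median, highest), and 4 of 6 treated libraries were below every untreated one. The log2 fold change of -2.41 (SE 0.67) was -1.34 without replicate 1.

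Nab2 (ENSMUSG00000025402.12, chr10:127660918-127668568) varied least of the 10 genes within the untreated group. Its levels there were 49.8, 38.7, 47.3 and 39.1 CPM, a 1.29-fold range. With insulin they were 14.96, 17.8 and 20.5 CPM. The groups were far apart and each was narrow, so that the log2 fold change of -1.33 had the smallest SE of the 10 genes (0.14) and was still -1.27 without replicate 1. On the opposite strand, exons of Gm16229 share 1050 of the 2941 exon bases of Nab2 (35.7%), and whether the counting used strand is not given in the sources used here. Gm16229 itself had too few reads to be tested. Nemp1 (151 bases, mean level 24.2 CPM) and Stat6 (40 bases, 109 CPM) share Nab2 exon bases on that strand too. Their log2 fold changes with insulin were -0.23 and -0.38. The part of such reads in the Nab2 level was not tested.

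Ier2 and Dusp1 were the remaining genes. Ier2 (ENSMUSG00000053560.4, chr8:84661331-84662852), a small nuclear protein gene of the early growth factor response, was at 141.2, 72.6, 94.7 and 73.3 CPM untreated and at 44.8, 60.8 and 63.8 CPM with insulin. The log2 fold change was -0.72 (SE 0.18), with no overlap, and -0.47 without replicate 1. Dusp1 (ENSMUSG00000024190.7, chr17:26505590-26562128) encodes a phosphatase that switches off MAP kinases. Its untreated levels were 59.1, 21.4, 27.9 and 28.9 CPM. Its treated levels were 10.3, 13.2 and 20.9 CPM, just under the lowest untreated value. The log2 fold change was -1.31 (SE 0.26), and -0.92 without replicate 1.

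**Figure D2:**
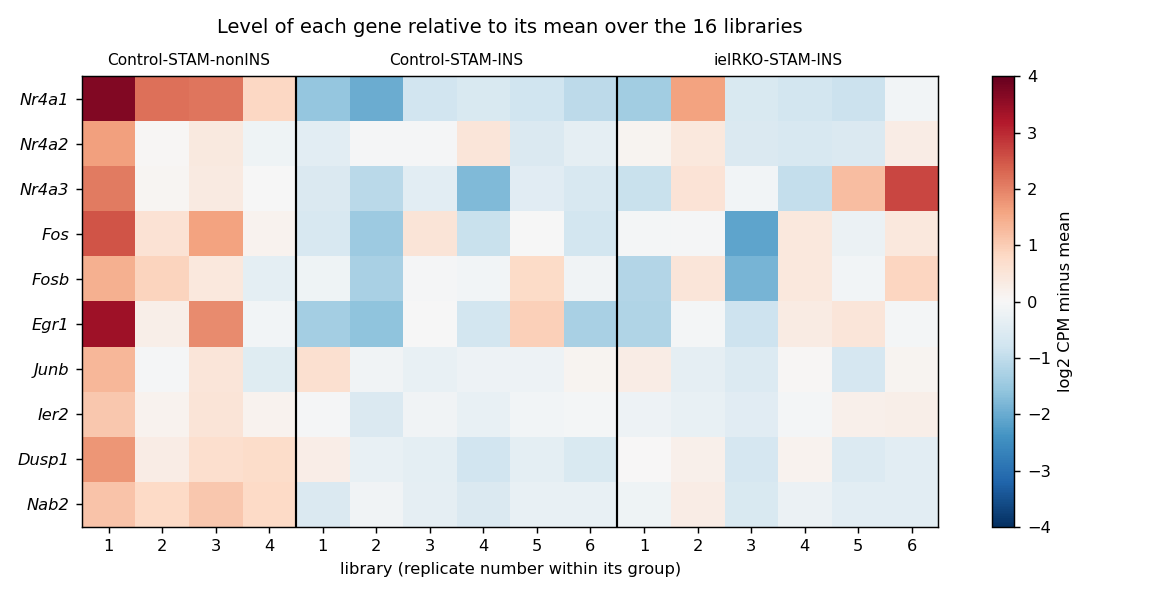
Log2 CPM of each gene (rows) in each library (columns, by replicate number within its group) minus the mean of that gene over the 16 libraries. Red is above and blue below that mean: Control-STAM-nonINS replicate 1 holds the highest level of 9 of the 10 genes, and the library labelled ieIRKO-STAM-INS replicate 6 that of Nr4a3.

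Control-STAM-nonINS replicate 1 held the highest untreated level of all 10 genes. With it left out, 3 members were called lower in the treated group instead of 6, while the calls of lower genes over all tested genes went from 1032 to 580, and the median log2 fold change was -0.93 instead of -1.32. The fitted change of all 10 genes was negative in each of the alternative fits, but without replicate 1 that of Junb was -0.02 and that of Nr4a2 -0.25.

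Levels between genes were compared per kilobase of exon. In the untreated group Junb (98.3 CPM per kb), Fos (83.1) and Ier2 (62.7) came first, and were followed by Egr1 (18.1), Nab2 (14.9), Nr4a1 (13.7) and Dusp1 (10.4). Ier2 did not overlap Egr1, the next in this order, whereas the range of Fos (31.9 to 168 CPM per kb) overlapped that of Egr1 (4.11 to 46.4). Egr1, Nab2, Nr4a1 and Dusp1 overlapped one another and stood above Nr4a2 (1.43), Nr4a3 (0.882) and Fosb (0.629), which overlapped as well. With insulin Junb (71.3 CPM per kb) stood alone, Ier2 (37.9) and Fos (22.2) overlapped, and the rest followed from Nab2 (5.90) down to Nr4a3 (0.264) with each neighbour overlapping the next. Nr4a1 was at 1.09 CPM per kb there, next to Nr4a2 at 0.819. The level of Nr4a1 in the untreated group was thus of the order of Egr1 and Dusp1, and in the treated group of the order of Nr4a2. Junb shares 173 of its 2301 exon bases (7.52%) with Prdx2 on the other strand.

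The libraries labelled ieIRKO-STAM-INS were then compared with Control-STAM-INS, which asks whether loss of the epithelial receptor changes the genes under insulin. The median log2 difference of the 10 genes was 0.14, against 0.02 over all tested genes. No member was called in either direction by edgeR or DESeq2, where edgeR called 0.223% and DESeq2 0.806% of all tested genes. At an unadjusted p under 0.05, edgeR gave 1 member, Nr4a3, where 11.3% of all tested genes passed. As in the other comparisons, the members were chosen with these values known and nothing is read from those counts. The groups overlapped for all 10 genes, where 0.406% of all tested genes were lower and 0.439% higher without overlap.

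Nr4a3 had the largest difference, 1.84 (SE 0.63, interval 0.61 to 3.07). Its lowest, median and highest levels in the libraries labelled ieIRKO-STAM-INS were 1.37, 3.28 and 18.1 CPM, and 4 of the 6 were above every Control-STAM-INS library. Replicate 6 with 18.1 CPM and replicate 5 with 6.61 CPM were highest, and without replicate 6 the log2 difference was 1.02. Nr4a1 was at 3.00, 4.99 and 24.5 CPM, a difference of 1.10 (SE 0.58, interval -0.03 to 2.23). The value of 24.5 CPM belonged to replicate 2, which is also the library with most B cell marker reads (446 CPM), while replicate 3 with 262 CPM of them had 5.24 CPM of Nr4a1. Without replicate 2 the Nr4a1 difference was 0.38, and without both libraries it was 0.35. The part of B cell transcripts in the Nr4a1 level was not tested.

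The other 8 genes were closer in level. Their log2 differences ran from -0.16 for Junb to 0.32 for Fos, with SEs between 0.13 and 0.62. The narrowest intervals were those of Nab2 (-0.13 to 0.39) and Ier2 (-0.19 to 0.43), and the widest was that of Egr1 (-0.95 to 1.49). For Egr1, Fos and Fosb, differences of these sizes were not detectable against the spread between libraries. The lowest, median and highest levels in the libraries labelled ieIRKO-STAM-INS were 15.9, 65.4 and 92.8 CPM for Fos and 8.58, 18.8 and 28.0 CPM for Egr1. Those of Dusp1 were 10.96, 15.3 and 19.95 CPM, and those of Nab2 14.5, 17.8 and 27.4 CPM, the highest again in replicate 2. Nr4a2 (2.28 to 4.92 CPM), Fosb (0.554 to 4.29 CPM), Junb (101 to 199 CPM) and Ier2 (48.0 to 78.2 CPM) lay over or around the Control-STAM-INS ranges.

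**Figure D3:**
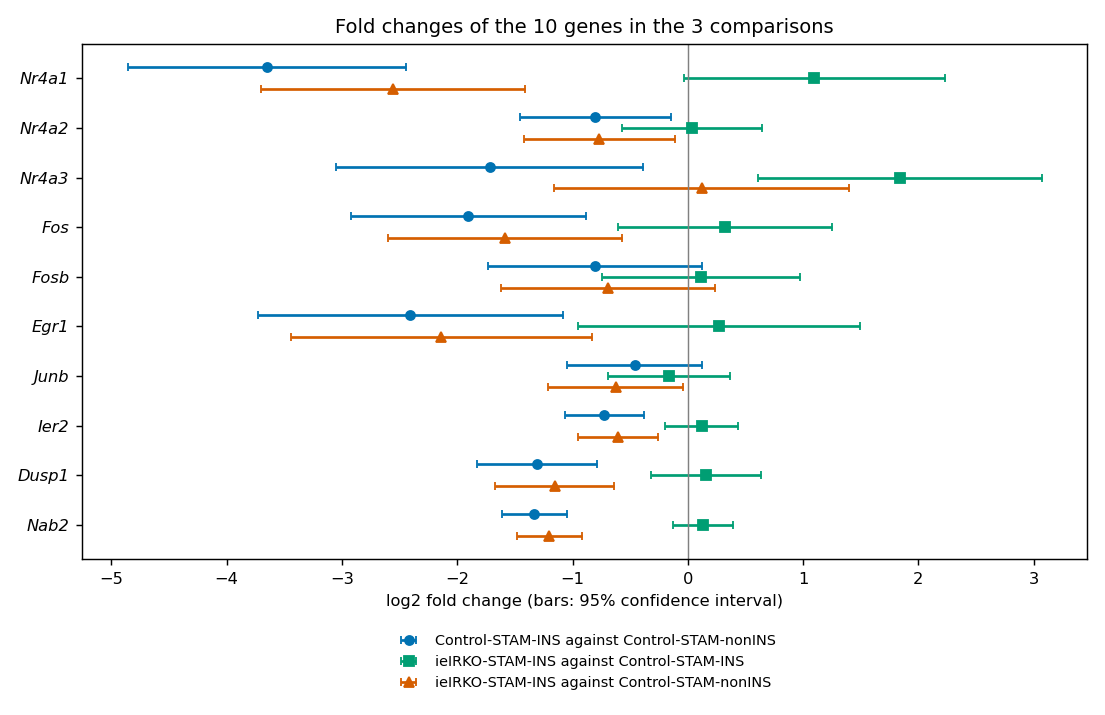
Log2 fold change of each gene in the 3 comparisons (points) with its 95% confidence interval (bars) from the fit of all 3 groups. The bars use normal limits, which are too narrow for so few libraries. Both comparisons with Control-STAM-nonINS lie mostly below 0, from -3.65 (Nr4a1 with insulin) upward, while the ieIRKO-STAM-INS against Control-STAM-INS points lie near 0 except Nr4a3 (1.84) and Nr4a1 (1.10).

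Set against Control-STAM-nonINS, the libraries labelled ieIRKO-STAM-INS had a lower fitted level of 9 of the 10 genes, with a median log2 fold change of -0.96 (0.0088 over all tested genes). This comparison shares the 4 untreated libraries with the first, so the values stand side by side and do not repeat it independently. The changes were -2.55 for Nr4a1 (-3.65 in the first comparison), -0.77 for Nr4a2 (-0.80), 0.12 for Nr4a3 (-1.72), -1.59 for Fos (-1.91), -0.70 for Fosb (-0.81), -2.14 for Egr1 (-2.41), -0.62 for Junb (-0.46), -0.61 for Ier2 (-0.72), -1.15 for Dusp1 (-1.31) and -1.20 for Nab2 (-1.33). Dusp1 and Nab2 did not overlap between the groups, where 4.76% of all tested genes were lower without overlap. The fit called 5 members lower, where 7.59% of all tested genes were, and nothing is read from that count. Nr4a3 was the member whose value differed most between the 2 comparisons, and it moved with single libraries: it was -0.70 without the library labelled ieIRKO-STAM-INS replicate 6 and 0.90 without Control-STAM-nonINS replicate 1. Leaving out that untreated library also moved Nr4a1 to -1.83, Egr1 to -1.07, Fos to -0.98 and Dusp1 to -0.76. Ier2 was then at -0.36, Fosb at -0.35, Nr4a2 at -0.21 and Junb at -0.19, while Nab2 stayed at -1.13.

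Other genes of the same response were taken from 3 lists: 25 further immediate early transcription factors, 30 feedback genes and 15 early response genes. Of these 70 genes 68 were tested, and Control-STAM-INS had 20 lower and 1 higher than Control-STAM-nonINS at an adjusted p under 0.05 (edgeR), where 10.5% of all tested genes were called in either direction. Their median log2 fold change was -0.59, and 59 of the 68 were negative. The count was 11 without untreated replicate 1, 13 without replicate 3 and 25 without replicate 4. Over all tested genes the number called lower fell in each of these fits, from 1032 to 580, 740 and 730. The smaller list counts without replicates 1 and 3 are therefore not read as particular to the lists. Without replicate 4 the list count rose while that over all tested genes fell, and the reason was not tested. In every alternative that could be run 11 of the 20 stayed called: Csrnp1, Bhlhe40, Cebpb, Myc, Errfi1, Dusp5, Gadd45b, Sik1, Spry2, Tob2 and Arc.

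Of 23 tested transcription factors 6 fell with insulin (median log2 fold change -0.47). Csrnp1, a nuclear factor of the early response, fell by 1.89 on the log2 scale, from 20.6 ± 15.8 CPM (SD, n = 4) to 5.56 ± 1.01 CPM (SD, n = 6; adjusted p = 0.0045, edgeR), and its log2 fold change was -1.19 without untreated replicate 1. Klf2 fell by 1.10 (adjusted p = 0.0209, edgeR), Bhlhe40, a basic helix-loop-helix repressor that also acts in the circadian clock, by 1.05 (adjusted p = 0.00281, edgeR) and Klf10 by 1.03 (adjusted p = 0.0478, edgeR). Cebpb, a leucine zipper factor of inflammatory and metabolic responses, fell by 1.02 (adjusted p = 0.00307, edgeR). Without Control-STAM-nonINS replicate 1 or replicate 3, Klf2 and Klf10 were no longer called, and Klf10 was called in 6 of 17 alternatives. The relatives Jun (log2 fold change -0.47, SE 0.38), Egr2 (-0.17, SE 0.75) and Egr3 (-0.28, SE 0.78) were not called and are named after their values were seen.

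Among 30 feedback genes 10 fell and none rose (median -0.50). Errfi1, an inhibitor of the EGF receptor, fell by 1.78, from 116 ± 75.1 CPM (SD, n = 4) to 33.7 ± 6.66 CPM (SD, n = 6; adjusted p = 0.0107, edgeR). Dusp5, a nuclear phosphatase of ERK, fell by 1.33 (adjusted p = 0.00383, edgeR). Gadd45b, a stress response gene, fell by 1.27 (adjusted p = 0.00364, edgeR), Sik1, a kinase that restrains CREB coactivators, by 1.15 (adjusted p = 0.00477, edgeR) and Btg2, an antiproliferative gene, by 1.02 (adjusted p = 0.0254, edgeR). Btg2 was no longer called without untreated replicate 1 or 3, and Gadd45b stayed called at -0.79 without replicate 1. Nab1, the relative of Nab2, was not called (log2 fold change 0.06, SE 0.10) and is likewise named after its value was seen.

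Of 15 early response genes 4 fell and 1 rose (median -0.91). Arc, an activity-regulated gene, was low, at 1.76 ± 0.88 CPM (SD, n = 4) and 0.392 ± 0.185 CPM (SD, n = 6), and fell by 2.11 (adjusted p = 0.00654, edgeR). Hbegf and Ereg, ligands of the EGF receptor family, fell by 1.68 (adjusted p = 0.0169, edgeR) and 1.22 (adjusted p = 0.0468, edgeR), and Ccn2, a matrix protein gene, by 0.91 (adjusted p = 0.0334, edgeR). Odc1, the first enzyme of polyamine synthesis, rose by 0.55 (adjusted p = 0.0243, edgeR), with 5 of 6 treated libraries above every untreated one. Hbegf, Ereg, Ccn2 and Odc1 were no longer called without Control-STAM-nonINS replicate 1, and Ereg and Ccn2 were called in 7 and 8 of 17 alternatives.

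The proteins that carry the signal to these promoters were covered by 22 genes for kinases, CREB, its coactivators, serum response factor and its partners. Their median log2 fold change with insulin was 0.01, and 2 of 22 (9.09%) were called, a share near the 10.5% of all tested genes called by edgeR. Both were lower: Braf by 0.34 (adjusted p = 0.0368, edgeR) and Mrtfb, a serum response factor coactivator, by 0.38 (adjusted p = 0.0322, edgeR). They stayed called in 7 and 11 of 17 alternatives. The abundance of their transcripts does not measure their activity. No gene was called with insulin among 9 cytosolic heat shock genes (1 lower and 1 higher at an unadjusted p under 0.05 with edgeR, 0 with DESeq2) or 15 circadian clock genes (2 lower and 2 higher at an unadjusted p under 0.05 with edgeR, 1 with DESeq2). At that unadjusted threshold 14.5% of all tested genes were lower and 10.8% higher, and DESeq2 called 13.6%.

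**Figure D4:**
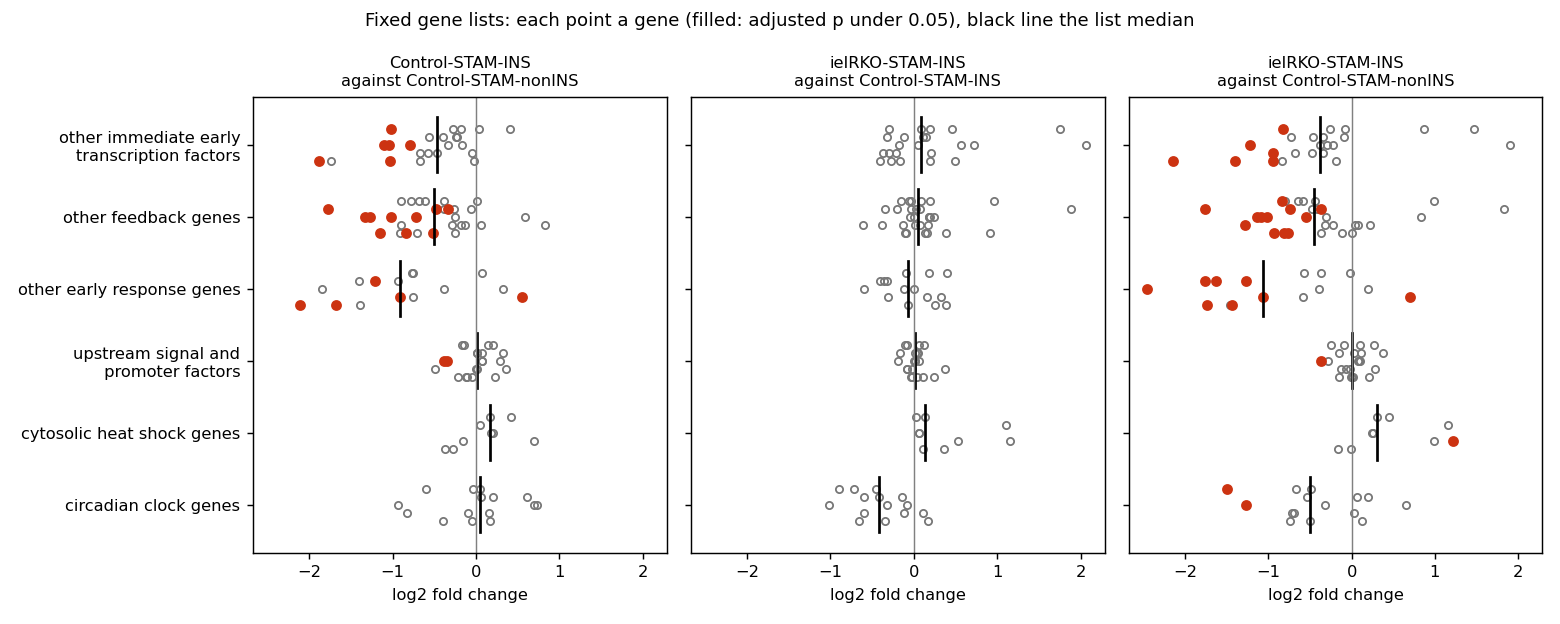
Log2 fold change of every tested gene (points) of 6 gene lists in the 3 comparisons, with the list median as a black line and genes with an adjusted p under 0.05 filled. With insulin the early response lists lie left of 0 (medians -0.47, -0.50 and -0.91), the upstream factors lie around 0 (0.01), and no point is filled in the middle panel, where the libraries labelled ieIRKO-STAM-INS are set against Control-STAM-INS.

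Between the libraries labelled ieIRKO-STAM-INS and Control-STAM-INS, 0 of the 68 genes were called by edgeR or DESeq2. Their median difference was 0.03. At an unadjusted p under 0.05 (edgeR), 6 were higher and 0 lower, where 7.38% of all tested genes were higher and 3.90% lower. The 6 of 68 lie near that share of higher genes, so nothing is read from the count. The 6 genes were Egr2 (2.06, SE 0.59), Dusp2 (1.89, SE 0.62), Egr3 (1.75, SE 0.67), Dusp4 (0.91, SE 0.29), Klf2 (0.72, SE 0.26) and Myc (0.56, SE 0.16). These 6 were named after their values were seen, because no gene passed the adjusted threshold. All 6 B cell markers were also higher at that unadjusted threshold, with a median log2 difference of 3.45, and DESeq2 called all 6 higher at its adjusted threshold. The part of the B cell transcripts in these genes was not tested. Of the 15 clock genes none was called by edgeR or DESeq2, 13 had a negative difference (median -0.41), and 5 were lower and 0 higher at an unadjusted p under 0.05 (edgeR): Dbp (-1.02, SE 0.40), Ciart (-0.89, SE 0.39), Hlf (-0.72, SE 0.27), Nr1d2 (-0.66, SE 0.22) and Nr1d1 (-0.41, SE 0.19), all named after their values were seen. None of the 9 heat shock genes passed either threshold.

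Against Control-STAM-nonINS, the libraries labelled ieIRKO-STAM-INS had 25 of the 68 genes lower and 1 higher (edgeR), where 13.3% of all tested genes were called in either direction. Without replicate 1 of the shared untreated group 8 were lower, and without replicate 3 there were 13, while over all tested genes the number called lower went from 1159 to 686 and 820. Leaving out the library labelled ieIRKO-STAM-INS replicate 3 or replicate 5 gave 16, with 879 and 960 over all tested genes. The largest falls were those of Areg (2.45; adjusted p = 0.0172, edgeR), another EGF receptor ligand, Atf3 (2.15; adjusted p = 0.0323, edgeR), a stress-induced leucine zipper factor, Errfi1 (1.76; adjusted p = 0.00959, edgeR) and Sgk1 (1.76; adjusted p = 0.0208, edgeR), a kinase induced by steroid hormones and serum. Odc1 was again the gene that rose, by 0.70 (adjusted p = 0.00505, edgeR). Among the clock genes Per1 fell by 1.27 (adjusted p = 0.0315, edgeR) and Ciart by 1.49 (adjusted p = 0.0287, edgeR), and among the heat shock genes Hsph1 rose by 1.22 (adjusted p = 0.0496, edgeR). Areg, Atf3, Sgk1, Per1, Ciart and Hsph1 were no longer called without Control-STAM-nonINS replicate 1, where Atf3 was at -1.45. Of 18 alternatives Hsph1 was called in 7, Atf3 in 9, Per1 in 10, Ciart in 13 and Areg and Sgk1 in 14. The lower genes that stayed called in all of them were Bhlhe40, Cebpb, Dusp5, Gadd45b, Spry2 and Tob2.

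Markers of several cell types moved with insulin treatment too, where edgeR called 6.76% of all tested genes lower and 10.5% in either direction. In bulk tissue fewer cells of a type and less RNA per cell cannot be told apart. Of 5 tested T cell markers 3 rose (Cd3e, Cd3g and Cd8a; Trac had no read in any library), and the sum of the list was 13.1 to 23.8 CPM untreated, 22.8 to 38.1 CPM with insulin and 23.1 to 57.6 CPM in the libraries labelled ieIRKO-STAM-INS. Of 5 enteroendocrine markers 4 fell, with sums of 144 to 289, 73.7 to 154 and 78.7 to 157 CPM. Of 6 endothelial markers 2 fell, with sums of 103 to 285, 99.8 to 140 and 113 to 157 CPM, and 1 of 6 myeloid markers, Itgam, rose. Cd3g, Cd8a, Chgb and Itgam stayed called in all 17 alternatives, and Cd3e was called in 8 and Gcg in 7. Both endothelial calls were lost without Control-STAM-nonINS replicate 4, the library with the sum of 285 CPM, where Cdh5 was at -0.46 (-0.70 with it) and Vwf at -0.41 (-0.75), and likewise without replicate 1. Chga was not called without replicate 1, nor Neurod1 without replicate 1 or 4. Of 6 enteric neuron markers Ret rose, with a call in 10 of 17 alternatives, and of the 4 glial, 2 Cajal cell and 6 B cell markers none was called by edgeR or DESeq2 (1 Cajal cell marker at an unadjusted p under 0.05). None of the smooth muscle (8), fibroblast (6), goblet (5), enterocyte (7) or crypt (4) markers was called with insulin by edgeR, with 0 to 2 per list at an unadjusted p under 0.05 and 1 fibroblast marker called by DESeq2. Between the libraries labelled ieIRKO-STAM-INS and Control-STAM-nonINS, edgeR called 4 of 5 T cell markers, 2 of 6 B cell markers (Cd79a and Fcer2a) and 1 of 6 myeloid markers (Itgam) higher, and DESeq2 called all 6 B cell markers higher. Lower there were 2 of 5 enteroendocrine markers (Chga and Chgb), 1 of 6 endothelial (Vwf), 1 of 6 fibroblast (Dcn) and 1 of 7 enterocyte markers (Fabp6). Of all tested genes 13.3% were called in this comparison and 7.59% were lower, so that 1 gene of 6 or 7 cannot be told from that background. Cd79a and Fcer2a were each called in 7 alternatives and not without the libraries labelled ieIRKO-STAM-INS replicates 2 and 3, Chga, Chgb and Dcn were not called without Control-STAM-nonINS replicate 1, Vwf not without its replicate 4, and Fabp6 was called in 9 of 18 alternatives. The part of these cell types in the immediate early gene levels was not tested.

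The 10 genes also varied together from library to library. To describe this without the group differences, log2 CPM were centred on their group means over the 16 libraries, which share their depth, scaling and tissue piece across genes. All 45 pairs had a positive Pearson r, with a median of 0.45 and a range of 0.05 to 0.78, and 17 pairs were over 0.5. Fos and Ier2 were the closest pair (0.78). Fos, Fosb, Egr1 and Ier2 formed a block with r from 0.65 to 0.78. Nab2 had the lowest median r with the other genes (0.29), down to 0.05 with Nr4a3. Much of this came with 1 library, since without Control-STAM-nonINS replicate 1 the median was 0.27, 34 of the 45 pairs were positive and 9 were over 0.5.

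**Figure D5:**
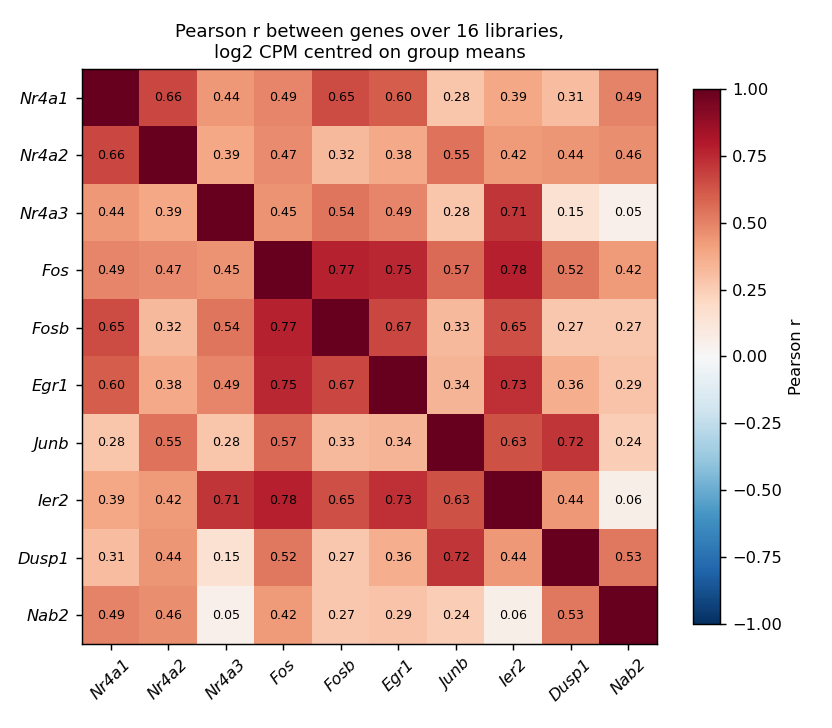
Pearson r between each pair of the 10 genes over 16 libraries, on log2 CPM centred on the group means. Every pair is positive, from 0.05 (Nr4a3 and Nab2) to 0.78 (Fos and Ier2).

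Outside the 10 genes, the genes most like them were those whose centred log2 CPM correlated best with the mean of the 10 standardised genes over the 16 libraries. They were Adamts1 (0.86), Cpeb4 (0.86), Hbegf (0.85), Ccn1 (0.85), C7 (0.85), Stam (0.84), Errfi1 (0.84), Ereg (0.84), Prkaa2 (0.83) and Ntrk2 (0.82). Hbegf, Ccn1, Errfi1 and Ereg were on the early response lists. Over the 68 genes of those lists the median r was 0.42 and 41.2% were over 0.5, against 5.26% of the 15257 tested genes outside the 10. These shares include Control-STAM-nonINS replicate 1, which had the highest mean of the 10 standardised genes (1.76). Whether they hold without it was not tested. Without the 2 libraries with the most extreme mean, Control-STAM-nonINS replicates 1 and 4, the r of the 10 most like genes was 0.61 to 0.79 over 14 libraries. These genes were picked for a high r over libraries that include those 14, and the group means were not taken anew. The values are thus no independent check. A gene like the 10 in this way need not differ between the groups. Adamts1, a secreted protease, fell by 2.67 with insulin (adjusted p = 0.00163, edgeR), and was still called at -1.75 without Control-STAM-nonINS replicate 1. Cpeb4, an RNA-binding protein gene, was not called (log2 fold change -0.04, SE 0.15).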

How the data were processed

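Total RNA of the ileal wall was sequenced in 16 libraries of 3 groups, which were taken from the labels. Per the labels and methods, the authors aligned reads to GRCm38 with CLC Genomics Workbench 21.0.3 and deposited a table of read counts per gene for each library, not normalized. The annotation, the strand setting and the handling of reads with several matches are not given in the sources used here. The kit keeps strand.

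Counts were filtered with filterByExpr (minimum count 10), scaled by TMM and fitted over the 3 groups with edgeR 4.0.16 (quasi-likelihood test, robust, R 4.3.3, limma 3.58.1), with Benjamini-Hochberg adjustment over 15267 genes and a threshold of 0.05. Log2 CPM use a prior count of 2. Confidence intervals use 95% normal limits and cover the spread between libraries. Normal limits take no account of the small number of libraries, so the intervals are narrower than the edgeR test would give. Junb in the libraries labelled ieIRKO-STAM-INS against Control-STAM-nonINS, for example, had an interval of -1.21 to -0.04. Its unadjusted p was 0.0541 (edgeR), above 0.05. The script was tested on simulated data.

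Genes named were the 10 members, at most 5 called genes per list, direction and comparison by size of fold change, Insr, and the 10 genes most correlated with the members. The members and lists were chosen with earlier results of these data known. Alternatives were DESeq2 1.42.0, RLE and upper-quartile scaling, 2 other filters, only the 2 groups compared, the replicate number as a block, each library left out, and, chosen after seeing the data, both libraries rich in B cell transcripts left out. No 2 libraries of a group agreed within sampling noise (chi-square per degree of freedom 15.8 or more).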

Additional observations from a re-analysis of the deposited data

Results flagged for a closer look

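Within the groups of 4 and 6 libraries, the highest and lowest level of each of the 10 genes was compared with the next value by Dixon's ratio (gap over range) at its 95% critical value. Of 30 tests 5 passed, where about 1.5 would pass by chance at 1 in 20 if the values were normal and the tests independent. The ratios were taken on CPM without logs and the 10 genes vary together. The 5 are therefore not read as an excess. Nr4a1 in the library labelled ieIRKO-STAM-INS replicate 2 was high at 24.5 CPM (ratio 0.795), in the library with 446 CPM of B cell markers. Nr4a3 was high in Control-STAM-nonINS replicate 1 at 11.9 CPM (ratio 0.906), the library with the highest untreated level of all 10 genes. It was also high in the library labelled ieIRKO-STAM-INS replicate 6 at 18.1 CPM (ratio 0.687). Junb and Dusp1 were both high in Control-STAM-INS replicate 1, at 252 CPM (ratio 0.657) and 20.9 CPM (ratio 0.636).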

How the results depend on the processing

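Between the libraries labelled ieIRKO-STAM-INS and Control-STAM-INS, the counts of called members and of called genes of the wider lists stayed at 0 in every alternative. In Control-STAM-INS against Control-STAM-nonINS, the 6 members called lower became 3 to 6 when a library was left out, the 20 genes of the wider lists called lower became 11 to 25, and the 1 called higher became 0 to 2, and it was 2 with DESeq2, with upper-quartile scaling and with only the 2 groups compared. Between the libraries labelled ieIRKO-STAM-INS and Control-STAM-nonINS, the 5 members called lower became 2 to 6 and the 25 wider genes 8 to 29 when a library was left out. These counts were 2 and 9 with only the 2 groups compared, and 3 and 15 with both B-cell-rich libraries (ieIRKO-STAM-INS replicates 2 and 3) left out, where fewer libraries enter the fit and the genes called lower over all tested genes went from 1159 to 672 and 743. The 1 wider gene called higher there was 4 with DESeq2 and 1 to 3 with a library left out. Without Control-STAM-nonINS replicate 1 the lower counts of both comparisons were at their smallest, 3 and 11 in the first and 2 and 8 in the second, with 580 and 686 genes called lower over all tested genes. Without replicate 3 of that group there were 13 wider genes in each and 3 members in the second. Leaving out the libraries labelled ieIRKO-STAM-INS replicate 2 or 3 gave 3 members in the second, and replicate 3 or 5 gave 16 wider genes. Of the wider genes called lower, 11 and 6 kept their call in every alternative of the first and the second comparison with Control-STAM-nonINS, and of those called higher 0 and 1 did.

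With the replicate number as a block, the second comparison with Control-STAM-nonINS had 3 members and 15 wider genes lower, and the first had 5 and 17. The numbers do not pair the libraries: deviations of the 14 same-numbered pairs correlated at -0.09 to 0.18, and 3 of 16 libraries correlated best with their own number. Without centring on group means, the median r between members was 0.64 instead of 0.45. Median log2 fold changes of the members with a library left out were -1.42 to -0.93, 0.11 to 0.28 and -1.10 to -0.56 in the 3 comparisons.

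Only 4 untreated mice were available, and replicate 1 sets much of their spread. Fosb, Nr4a3, Nr4a1 and Nr4a2 had as few as 9, 11, 25 and 35 counts in a library, so counting error adds to their spread.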
